A study of Mus musculus with 12 samples.

Results

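The cytosolic ribosomal protein genes were taken as all protein-coding genes of the deposited table whose symbol starts with Rpl or Rps and a digit, starts with Rplp or is Rpsa, leaving out the Rps6k kinases. This gave 87 of 11669 genes. They held 42 proteins of the large subunit, 31 of the small subunit, the 3 proteins of the ribosomal stalk (Rplp0, Rplp1 and Rplp2) and 4 paralogs (Rpl7l1, Rpl22l1, Rps27l and Rpl36al). The other members were the retrogene Rps27rt, 5 genes with retrocopy names (Rpl9-ps6, Rpl10-ps3, Rpl27-ps3, Rpl36a-ps1 and Rps12-ps3) and Rps19bp1, a binding partner of Rps19 that is not itself a ribosomal protein.

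RNA was sequenced from 12 libraries of mouse cells called TAMC in the labels, 3 for each of 4 groups. The exposures lasted 24 h and were PBS or one of the preparations NP-D@MP, NP-D@M and NP@M, within a study of a drug-loaded nanoparticle with a cancer cell membrane coat. What TAMC, NP, D, M and P stand for is not given in the labels, and they do not say whether the 3 libraries of a group came from separate cultures, so the p-values describe spread among libraries only, and that spread may be technical. The labels name marrow and an immune cell type, while the extraction protocol speaks of retinas. None of 8 retina markers and none of 7 erythroid markers was in the table, while all 14 monocyte and macrophage markers and 12 of 14 neutrophil markers were. PBS and NP@M are called the groups without D below, and NP-D@M and NP-D@MP the groups with D.

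Ribosomal proteins and rRNA form the small subunit, which reads the mRNA, and the large subunit, which joins amino acids, and the stalk of the large subunit recruits the factors that hydrolyse GTP during translation. The proteins are made in balanced amounts, and their mRNAs are among the most abundant of most cells. Many of these mRNAs start with a C followed by a run of pyrimidines, the terminal oligopyrimidine (TOP) motif, through which mTORC1 and Larp1 govern their translation, and they are made in step with the assembly of ribosomes in the nucleolus. Ribosomal protein mRNAs are short, and mammalian genomes hold many processed pseudogenes of them.

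The TOP motif lies at the start of the transcript, so a window of 10 bases before to 20 bases from the annotated start is shown for 8 members on which the results below turn. The sequences are from RefSeq on build GRCm38.p6, in which 63 of the 87 members had at least 1 promoter. Capitals mark the letters CTTTC, a pyrimidine run of the kind that opens a TOP mRNA.
Rplp2: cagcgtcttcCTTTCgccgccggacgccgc
Rpl38: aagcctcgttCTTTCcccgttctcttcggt
Rps27: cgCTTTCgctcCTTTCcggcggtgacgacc
Rps27rt: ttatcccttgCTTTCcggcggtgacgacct
Rpl37a: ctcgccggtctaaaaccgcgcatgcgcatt
Rps6: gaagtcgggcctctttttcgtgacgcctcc
Rpl7l1: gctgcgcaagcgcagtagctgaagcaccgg
Rps19bp1: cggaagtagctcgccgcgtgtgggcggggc

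The windows lie at chr7:141447641-141447670 (Rplp2, plus strand), chr11:114668570-114668599 (Rpl38, plus strand), chr3:90213629-90213658 (Rps27, minus strand), chr9:114982720-114982749 (Rps27rt, minus strand), chr1:72711250-72711279 (Rpl37a, plus strand), chr4:86857348-86857377 (Rps6, minus strand), chr17:46782637-46782666 (Rpl7l1, minus strand) and chr15:80264287-80264316 (Rps19bp1, minus strand). Rplp2, Rpl38, Rps27 and Rps27rt have CTTTC at or close to the start, and the windows of Rps27 and its retrogene share a run of 19 identical bases. The Rps6 window has a pyrimidine run that these letters do not match, and the windows of Rpl37a, Rpl7l1 and Rps19bp1 have no match. On the sense strand within 30 bases of the start, CTTTC stood in 23 of 74 member promoters (31.1%) and in 7.87% of the 32777 other promoters in RefSeq. CTTCC, searched on both strands over the 300 bases of each promoter, stood in 93.2% of member promoters and 71.4% of the others. TATAAA, searched on the sense strand within 50 bases of the start, stood in 6.76% and 3.39%. CTTTC and CTTCC can overlap in an end C at most, and TATAAA overlaps neither. A match describes the sequence and is not a measured site.

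The deposited values are FPKM, which scales fragments by gene length and by a library's divisor, and each value times its gene length was a whole multiple of 1 step per library, which gave back 14444950 to 17338264 reads per library. The divisor implied by that step was 2.19 to 2.36 times the recovered reads in libraries without D and 0.468 to 0.553 times in libraries with D. The deposited scaling therefore differs between the groups compared, so each result is given on 2 scales: as deposited, and at equal totals, where each library was multiplied by 1 factor to make the sum of value times gene length equal, so that values are recovered reads scaled by gene length and by each library's own recovered reads. The selection of these 11669 genes is not described in the sources used here. In the deposited scaling 6.14% and 6.27% of the genes tested lay within 0.5 log2 units of 0 in the comparisons of NP-D@M with NP@M and of NP-D@MP with PBS. The 10 most abundant genes took 10.1 to 12.4% of the reads without D and 33.5 to 35.4% with D. In bulk RNA, fewer cells of a type and less RNA per cell cannot be told apart.

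2 libraries stood apart in these genes, PBS replicate 3 and NP@M replicate 2. PBS replicate 3 was below both other PBS libraries in 79 of the 84 members tested (94.0%), against 49.0% of all genes tested, with a median difference from them of -1.52 log2 units. NP@M replicate 2 was below both of its group in 79 of 84 members, against 49.9% of all genes, with a median difference of -1.07. Of all genes, 9.31% and 9.11% were listed at 0 there, while the other 4 libraries without D had 2.65 to 2.96% and the libraries with D 8.94 to 13.4%. NP-D@MP replicate 1 was below both of its group in 70 members (83.3%), against 42.1% of all genes, with a median difference of -0.73. Results are therefore given with and without PBS replicate 3 and NP@M replicate 2.

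The shortfall in those 2 libraries was graded by the length of the coding sequence. In PBS replicate 3 the median difference was -1.96 for the 29 members with a coding length under 400 bases, -1.51 for the 46 from 400 to under 800 bases and -0.21 for the 8 from 800 to under 1600 bases. In NP@M replicate 2 the same classes stood at -1.47, -1.06 and -0.25. All genes tested showed the same order with smaller values, at -0.86, -0.32 and -0.07 in PBS replicate 3 and at -0.69, -0.32 and -0.09 in NP@M replicate 2, and genes of 1600 bases or more stood above the other libraries, by 0.33 and 0.26. Across the 84 members the differences of the 2 libraries, each from its own group, had a Pearson correlation of 0.873 and a Spearman correlation of 0.859 (genes of 1 table, not independent replicates). Rplp1, Rpl38 and Rpl41, with coding lengths of 342, 210 and 138 bases, were far below the other libraries there, and Rpl4 and Rpl3, with 1257 and 1209 bases, were not. What made these libraries differ was not tested.

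**Figure D1:**
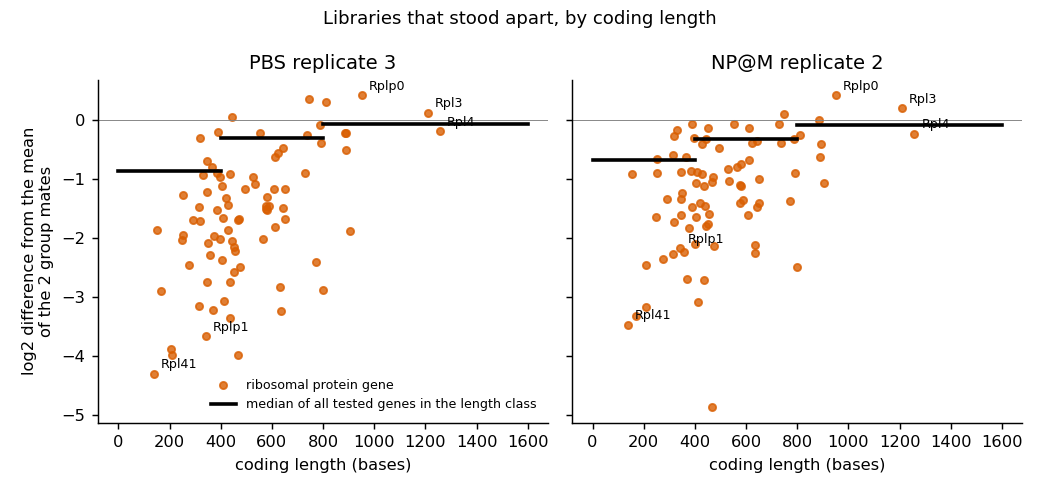
Difference of PBS replicate 3 (left) and NP@M replicate 2 (right) from the mean of the other 2 libraries of their group, in log2 units, against coding length in bases; each point is 1 ribosomal protein gene and black bars are medians of all tested genes in 3 length classes. The shortest members lie lowest, with class medians of -1.96 and -1.47 under 400 bases against -0.21 and -0.25 from 800 to under 1600 bases.

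Members took between 1.61 and 5.80% of the recovered reads. The share was 4.0, 3.31 and 1.61% in the PBS libraries (mean 2.97% ± 1.23, SD, n = 3) and 3.22, 1.78 and 2.82% in the NP@M libraries (2.61% ± 0.743). It was 4.64, 3.69 and 4.57% in the NP-D@M libraries (4.30% ± 0.530) and 3.42, 5.80 and 4.94% in the NP-D@MP libraries (4.72% ± 1.20). The lowest shares were those of the 2 libraries that stood apart. The NP-D@M libraries all lay above the NP@M libraries, by 1.70 percentage points in the mean (two-sided exact permutation p = 0.1, the smallest that 3 against 3 libraries allow). NP-D@MP and PBS overlapped, with NP-D@MP replicate 1 below PBS replicate 1 (difference 1.75 points, two-sided exact permutation p = 0.2).

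**Figure D2:**
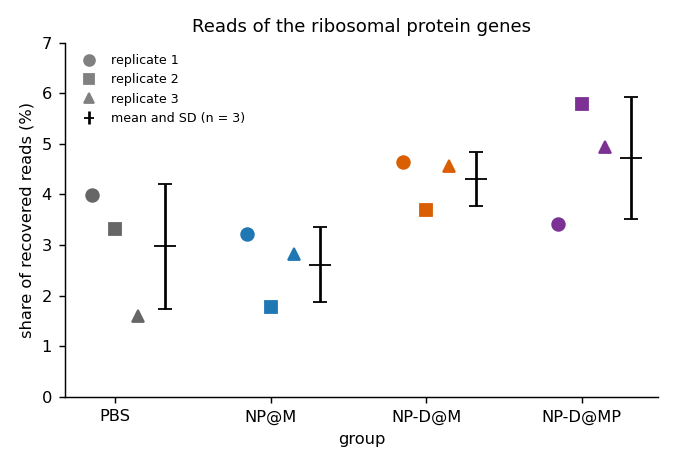
Share of recovered reads that fell in the 87 ribosomal protein genes, in percent, by group; points are libraries, and the bar beside them is the mean with its SD (n = 3). The 3 NP-D@M libraries lie above the 3 NP@M libraries, and the lowest PBS and NP@M points are PBS replicate 3 (1.61%) and NP@M replicate 2 (1.78%).

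Levels within the family spanned several orders of magnitude in each group. By group mean of deposited FPKM, 27 of 87 members stood at 100 or more in PBS, 25 in NP@M, 69 in NP-D@M, with 70 in NP-D@MP, and 15, 15, 11 and 13 members stood under 10. The median member had an FPKM of 55.8, 48.4, 393 and 493 in the same order. The highest in PBS were the stalk proteins Rplp1 and Rplp0 (mean 894.5 and 434), then Rpl19 (317), Rpsa (282) and Rpl8 (238), and the lowest were Rpl21, Rpl36al, Rpl36a-ps1, Rps10 and Rpl26. The SD of Rplp1 (688, n = 3) was wide enough that Rplp1 and Rplp0 did not differ beyond their spread, and the same was true of each neighbouring pair among these 5. The order of the members was nearly kept, with a Spearman correlation of group means over 87 members of 0.978 between NP@M and PBS and of 0.924 between NP-D@M and NP@M.

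A gene was called where limma gave a Benjamini-Hochberg adjusted p under 0.05 over the 8615 genes with an FPKM of at least 1 in at least 3 libraries. The fold changes are on the log2(value + 1) scale, which understates changes of low genes. Of the 87 members 84 were tested. Rpl21, Rps10 and Rpl36al did not reach that level.

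NP-D@M was compared with NP@M, a pair whose names differ by D. As deposited, 79 of 84 members were called higher in NP-D@M, where 45.2% of all genes were, and 2 were called lower, where 46.0% of all genes were. Libraries did not overlap in 81 members that were higher (46.3% of all genes) and 2 that were lower (46.7% of all genes). The 2 called lower were Rps19bp1 and the paralog Rpl7l1, and the 3 that were not called were Rpl35a, Rpl30 and Rpl7a. The median member stood at 2.91 log2 units and the median gene at 0.16. At equal totals 17 members were called higher (9.12% of all genes) and the same 2 lower (61.7% of all genes), with medians of 0.79 for members and -1.47 for all genes. The gap between members and all genes was thus 2.75 log2 units as deposited and 2.25 at equal totals, and 82 of 84 members lay above the median of all genes on both scales. Most members have a coding length under 800 bases, and genes that short also stood above the median of all genes. In each length class under 800 bases the gap was smaller, on both scales, as given below. Single libraries moved the 17: it was 7 without NP@M replicate 2 (7.48% of all genes), 10 without NP-D@M replicate 1 or replicate 3 (7.58 and 7.43%) and 33 without PBS replicate 3 (11.6%), which enters only the shared spread.

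NP-D@MP was compared with PBS, and these 6 libraries share none with the pair before. As deposited, 79 members were called higher (45.7% of all genes) and 2 lower (45.8% of all genes), and Rpl26, Rpl30 and Rpl7a were not called. Libraries did not overlap in 78 members that were higher (44.7% of all genes) and 2 that were lower (44.7%). The medians were 2.92 for members and 0.13 for all genes. At equal totals 13 members were called higher (9.01% of all genes) and 4 lower (62.4% of all genes), the lower ones being Rps19bp1, Rpl7l1, Rpl5 and Rps6, with medians of 0.74 and -1.48. The gap was 2.78 and 2.23 log2 units, and 82 of 84 members lay above the median of all genes. Here too the gap was smaller in each length class under 800 bases. The 13 became 7 without PBS replicate 3 (7.75% of all genes), 8 without NP-D@MP replicate 2 (7.21%) and 27 without PBS replicate 1 (9.97%), and the 4 became 2 without NP-D@MP replicate 1 (61%).

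Leaving out PBS replicate 3 and NP@M replicate 2, a choice made after the data were seen, left 79 members higher (45.2% of all genes) and 2 lower (47.6%) in NP-D@M against NP@M as deposited, and 78 (45.5%) and 2 (47.2%) in NP-D@MP against PBS. The medians of the members moved to 2.42 and 2.43 as deposited and to 0.28 and 0.17 at equal totals, where 21 and 15 were called higher (11.1 and 10.3% of all genes) and 3 and 7 lower (67.3 and 68.3%). The gap to all genes was then 2.35 and 1.78 in the first comparison and 2.32 and 1.71 in the second. The count depended on the scaling between libraries. With totals that left out the 16 most abundant genes, 35 and 36 members were called higher (15.5 and 15.2% of all genes) and 2 and 2 lower (56.3 and 57.1%). Under quantile normalization 23 and 24 members (27.4 and 28.6%) were called higher, a lower share than the 34.8 and 34.7% of all genes. Called lower were 3 and 5 (36.6 and 36.7% of all genes), with medians of 0.75 and 0.92 for members and -0.13 and -0.13 for all genes. There 18 and 19 of 84 members were below 0, among them Rps6, Rpl5, Rpl3, Rpl4, Rpl10 and Rps3 in both comparisons and Rpl7 in NP-D@MP against PBS. The fit of recovered reads with voom, a limma method for counts, called 17 higher and 2 lower in the first comparison (8.76 and 61.2% of all genes) and 14 and 4 in the second (8.67 and 62.0%).

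**Figure D3:**
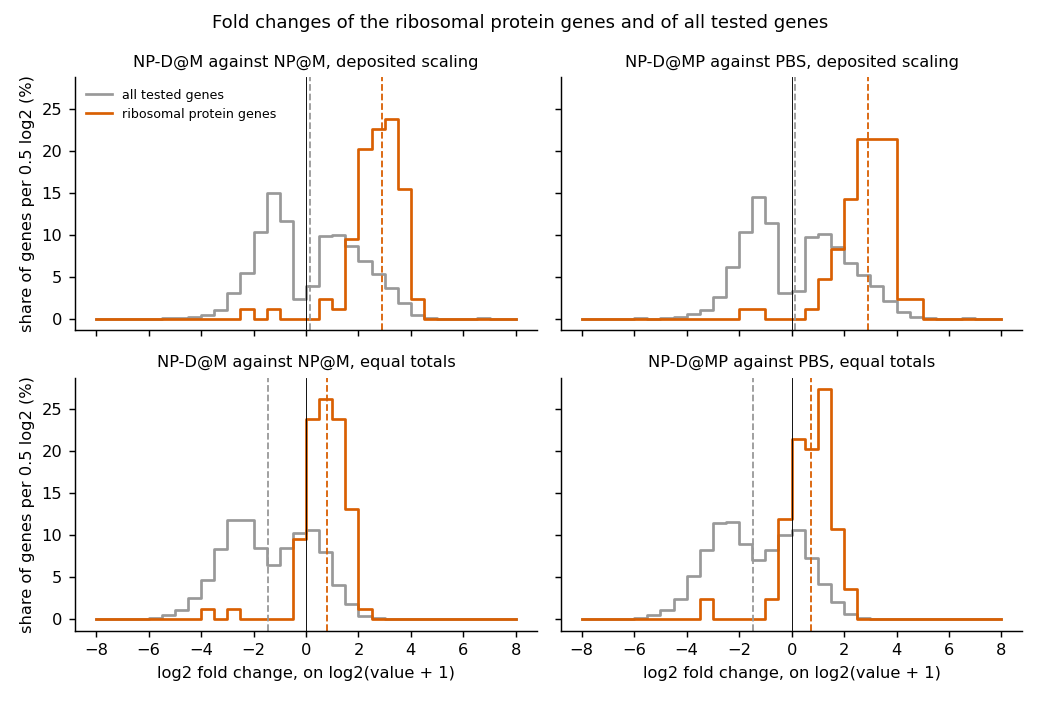
Share of genes per 0.5 log2 units of fold change, in percent, for the ribosomal protein genes tested (orange) and all tested genes (grey), in NP-D@M against NP@M (left) and NP-D@MP against PBS (right), as deposited (top) and at equal totals (bottom); dashed lines are medians. The orange median lies to the right of the grey median in all 4 panels, at 2.91 and 2.92 as deposited and 0.79 and 0.74 at equal totals. In each panel 82 of 84 members lie to the right of the grey median.

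Across members the 2 comparisons gave like orders, with a Pearson correlation of 0.950 and a Spearman correlation of 0.908 over 84 members as deposited, and 0.915 and 0.901 without Rps19bp1 and Rpl7l1. No library is shared, but members share coding length and pseudogene reads, so this is a description. At equal totals 11 members were called higher in both comparisons, which is 64.7% of the 17 and 84.6% of the 13. They were Rplp0, Rpl9, Rpl12, Rpl31, Rpl37a, Rps4x, Rps12, Rps21, Rpsa, Rpl9-ps6 and Rps12-ps3. Of all genes, 9.12 and 9.01% were called higher in the 2 comparisons. Their overlap was not counted, so it is not known whether the overlap of the members is particular to them. Members with larger fold changes and a wide spread between libraries, such as Rpl41, did not pass.

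Stalk proteins had higher medians than the other proteins of either subunit, a difference that was neither tested nor matched for coding length. All 3 were called higher as deposited in both comparisons (medians 3.37 and 3.57), where 45.2 and 45.7% of all genes were. At equal totals 1 of 3, Rplp0, was called higher (medians 1.21 and 1.35), where 9.12 and 9.01% of all genes were. Rplp0, which anchors the stalk to the large subunit, had a deposited FPKM of 416, 366 and 519 in PBS, 376, 486 and 354 in NP@M, then 4818, 4428 and 3388 in NP-D@M, with 3986, 5165 and 3378 in NP-D@MP. All 6 libraries with D were above all 6 without it. Rplp0 rose by 3.37 log2 units (SE 0.24, adjusted p = 3.68e-07) in NP-D@M against NP@M and by 3.26 in NP-D@MP against PBS (adjusted p = 4.62e-07). At equal totals its levels were 973, 862 and 1137 in PBS, 882, 1125 and 832 in NP@M, then 2666, 2137 and 1786 in NP-D@M, with 2010, 2518 and 1581 in NP-D@MP. The groups still did not overlap, and the log2 fold changes were 1.21 (adjusted p = 0.000705) and 1.02 (adjusted p = 0.00224). Under quantile normalization none of the 3 stalk genes was called, with Rplp0 at 0.36 and 0.20.

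Rplp1 and Rplp2 form the paired arms of the stalk. Rplp1 had an FPKM of 1279, 1304 and 100 in PBS, 835, 163 and 644 in NP@M, then 4789, 4587 and 6774 in NP-D@M, with 4178, 9577 and 10871 in NP-D@MP. The libraries with D were again all higher, and PBS replicate 3 and NP@M replicate 2 lay far below the rest of their groups. The fold changes were 3.57 (SE 0.92, adjusted p = 0.00343) and 3.78 as deposited, and 1.41 (adjusted p = 0.209) and 1.54 (adjusted p = 0.171) at equal totals, where Rplp1 did not pass. Rplp2 had an FPKM of 132, 104 and 16.6 in PBS, 93.3, 26.7 and 74.5 in NP@M, then 582, 617 and 464 in NP-D@M, with 642, 709 and 896 in NP-D@MP. It showed the same picture, with fold changes of 3.24 and 3.57 as deposited and 1.10 and 1.35 at equal totals, the latter not called. Within a library the ratio of Rplp1 to Rplp0 ran from 0.193 to 3.56 without D and from 0.994 to 3.22 with D, lowest in the same 2 libraries.

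**Figure D4:**
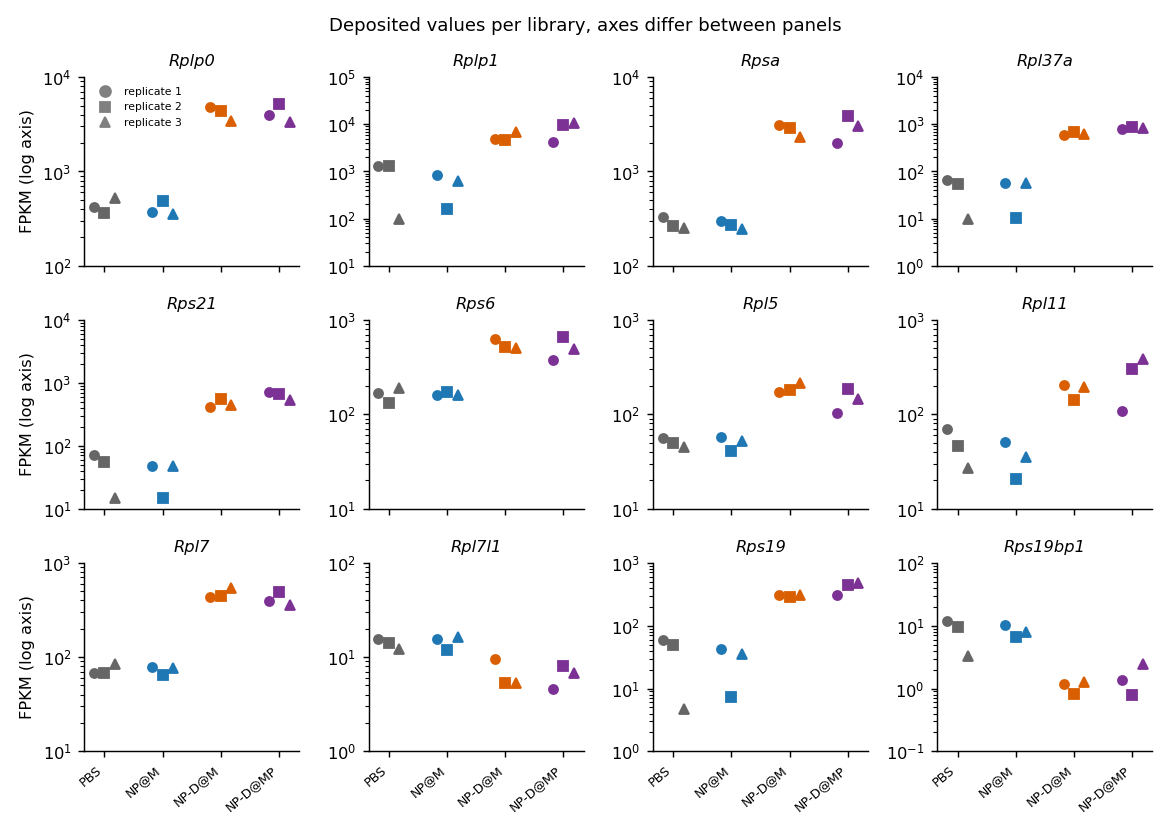
Deposited FPKM of 12 members in each library on log axes whose ranges differ between panels; symbols mark replicates 1 to 3 within a group and carry no pairing. Rplp0 and Rpsa are tight within the groups without D and higher in all 6 libraries with D as deposited, Rplp1, Rpl37a and Rps19 dip in PBS replicate 3 and NP@M replicate 2, and Rpl7l1 and Rps19bp1 are lower in all 6 libraries with D.

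Of 41 large subunit proteins tested, 38 were called higher in each comparison as deposited (medians 2.73 and 2.82). At equal totals 7 were called higher in NP-D@M against NP@M (median 0.66), and 4 higher and 1 lower in NP-D@MP against PBS (median 0.59). Of all genes, 45.2 and 45.7% were higher as deposited. At equal totals 9.12 and 9.01% of all genes were higher and 61.7 and 62.4% lower. Rpl37a, a small zinc-binding protein of the large subunit, had the largest fold change of all members in both comparisons and on both scales. Its FPKM was 65.8, 54.2 and 10.1 in PBS, 57.9, 10.2 and 55.7 in NP@M, then 593, 687 and 630 in NP-D@M, with 788, 857 and 820 in NP-D@MP. The 6 libraries with D lay close together and above all others. The fold changes were 4.25 (SE 0.70, adjusted p = 0.000175) and 4.58 (adjusted p = 0.000101) as deposited, and 2.12 (adjusted p = 0.0256) and 2.38 (adjusted p = 0.0145) at equal totals. The call of 2.12 ended without NP@M replicate 2 (1.30, adjusted p = 0.0993) and without any 1 of the NP-D@M libraries (2.11 to 2.12).

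Rpl41, the shortest ribosomal protein, and Rpl35 followed as deposited. Rpl41 had an FPKM of 295, 283 and 13.6 in PBS, 179, 13.9 and 152 in NP@M, then 1390, 652 and 2324 in NP-D@M, with 1283, 3864 and 3308 in NP-D@MP. The groups with and without D did not overlap, but libraries of 1 group differed several-fold, and the fold changes of 4.11 and 4.57 carried an SE of 1.20 (adjusted p = 0.00742 and 0.00402). Rpl35 stood at 3.96 (adjusted p = 0.0019) and 4.25 (adjusted p = 0.00118), and Rpl39, another very short protein at the exit tunnel, at 3.82 and 3.36. Rpl38, which lies at the surface of the large subunit, had an FPKM of 88.0, 69.9 and 4.03 in PBS and of 267, 650 and 774 in NP-D@MP, with fold changes of 3.15 (adjusted p = 0.0119) and 4.02 (adjusted p = 0.00301). Without NP@M replicate 2 the first Rpl38 value was 2.33 (adjusted p = 0.0511).

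Rpl3 and Rpl4, the longest members and components of the core of the large subunit, had smaller fold changes. Rpl4 had an FPKM of 180, 184 and 159 in PBS, 187, 155 and 178 in NP@M, then 802, 828 and 958 in NP-D@M, with 630, 840 and 756 in NP-D@MP. Here the libraries of each group lay close together, PBS replicate 3 and NP@M replicate 2 included. The fold changes of Rpl3 and Rpl4 in NP-D@MP against PBS were 2.13 and 2.07 as deposited and -0.09 (SE 0.19) and -0.16 (SE 0.18) at equal totals, where neither was called, and both were below 0 under quantile normalization too. Rpl10, which completes the peptidyl transferase centre late in assembly, stood at 2.30 and 2.38 as deposited and below 0 under quantile normalization.

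Rpl5 and Rpl11 join the ribosome as a complex with a small rRNA, and outside the ribosome that complex binds the p53 regulator Mdm2. Rpl5 had an FPKM of 55.6, 50 and 45.2 in PBS, 57.0, 40.4 and 51.8 in NP@M, then 173, 179 and 212 in NP-D@M, with 103, 183 and 147 in NP-D@MP. All libraries with D were higher as deposited, with fold changes of 1.91 (adjusted p = 1.56e-05) and 1.47 (adjusted p = 0.000113), among the smaller ones of the family, and with values below 0 under quantile normalization. At equal totals its levels were 130, 118 and 98.9 in PBS and 52.0, 89.3 and 68.8 in NP-D@MP. The groups did not overlap there, in the other direction, and Rpl5 fell by 0.74 log2 units (SE 0.23, adjusted p = 0.0134), while in NP-D@M against NP@M it stood at -0.24 (adjusted p = 0.378). That call did not hold with totals that left out the most abundant genes, at -0.30 (adjusted p = 0.281, and 0.21 in NP-D@M against NP@M), nor without NP-D@MP replicate 1, at -0.55 (adjusted p = 0.0591).

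Rpl11 was higher as deposited by 2.38 and 2.37 log2 units (adjusted p = 0.000904 and 0.000929). Its FPKM was 69.2, 46.6 and 26.7 in PBS, 51.0, 20.5 and 35.1 in NP@M, then 204, 142 and 195 in NP-D@M, with 108, 301 and 386 in NP-D@MP. The groups with D lay above those without, and NP-D@MP was the widest. At equal totals Rpl11 stood at 0.25 and 0.16 and was not called. Without the 2 libraries that stood apart these values turned to -0.10 and -0.23. The ratio of Rpl5 to Rpl11 within a library ran from 0.804 to 1.98 without D and from 0.380 to 1.26 with D, so the ranges overlapped.

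All 30 small subunit proteins tested were called higher as deposited in both comparisons (medians 3.0 and 3.21). At equal totals 7 were called higher in NP-D@M against NP@M (median 0.84), and 6 higher and 1 lower in NP-D@MP against PBS (median 1.01). Of all genes, 45.2 and 45.7% were higher as deposited. At equal totals 9.12 and 9.01% of all genes were higher and 61.7 and 62.4% lower. Rpsa, a small subunit protein that is also known as a laminin receptor, had an FPKM of 328, 264 and 253 in PBS, 295, 269 and 247 in NP@M, then 3128, 2923 and 2303 in NP-D@M, with 2008, 3854 and 3012 in NP-D@MP. Its libraries without D lay in a narrow band far below all libraries with D. The fold change was 3.35 in both comparisons (adjusted p = 5.03e-07 in the first), and 1.19 (adjusted p = 0.00111) and 1.11 (adjusted p = 0.00173) at equal totals, while under quantile normalization Rpsa stood at 0.39 and 0.26 and was not called.

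Rps21 had an FPKM of 72.1, 55.6 and 14.8 in PBS, 48.4, 14.7 and 48.0 in NP@M, then 414, 559 and 452 in NP-D@M, with 724, 656 and 540 in NP-D@MP. The groups with D lay higher, and the dip of the 2 libraries that stood apart was plain. Its fold changes were 3.81 and 3.98 as deposited and 1.67 (adjusted p = 0.026) and 1.77 (adjusted p = 0.0196) at equal totals. The first of these Rps21 calls ended without NP@M replicate 2 (1.11) or any 1 NP-D@M library (1.61 to 1.72), the second without PBS replicate 3 (1.05) or NP-D@MP replicate 1 (1.65). Rps27a, made as a fusion with ubiquitin, stood at 3.92 and 3.22, and Rps20 at 3.72 and 3.98. Rps3 at the mRNA entry and Rps14 at the platform, both of the small subunit, stood at 2.47 and 2.28 and at 2.95 and 2.73 as deposited, and Rps3 below 0 under quantile normalization.

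Rps6, the small subunit protein that S6 kinases phosphorylate downstream of mTORC1, had the smallest fold change of the small subunit proteins in both comparisons. Its FPKM was 166, 133 and 191 in PBS, 158, 171 and 161 in NP@M, then 630, 516 and 504 in NP-D@M, with 377, 652 and 488 in NP-D@MP. As deposited it was higher in all libraries with D, by 1.74 (adjusted p = 3e-05) and 1.61 (adjusted p = 5.49e-05), while under quantile normalization both values were below 0. At equal totals its levels were 371, 396 and 378 in NP@M against 349, 249 and 266 in NP-D@M, and in that comparison the groups did not overlap, with Rps6 lower with D. The change there was -0.42 (adjusted p = 0.116), and in NP-D@MP against PBS Rps6 fell by 0.62 log2 units (adjusted p = 0.0271). That call did not hold with totals that left out the most abundant genes, at -0.17 (adjusted p = 0.501, and 0.033 in the first comparison), nor without PBS replicate 1, PBS replicate 3, NP-D@MP replicate 1 or NP-D@MP replicate 3 (-0.59, -0.54, -0.45 and -0.59). Within a library Rplp0 stood 2.20 to 2.84 times as high as Rps6 without D and 6.72 to 10.6 times as high with D. Scaling by 1 factor per library leaves this ratio unchanged, while quantile normalization can change it.

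Rps19, a small subunit protein needed for rRNA processing, had an FPKM of 59.7, 48.5 and 4.81 in PBS, 43.1, 7.40 and 35.2 in NP@M, then 308, 286 and 311 in NP-D@M, with 303, 446 and 475 in NP-D@MP. All libraries with D were higher, by 3.67 (adjusted p = 0.00139) and 3.95 (adjusted p = 0.000837) as deposited, while 1.56 (adjusted p = 0.138) and 1.78 (adjusted p = 0.0939) at equal totals did not pass. Its binding partner Rps19bp1, a nucleolar protein whose symbol alone brings it into the set, had an FPKM of 12, 9.45 and 3.30 in PBS, 10.3, 6.54 and 7.85 in NP@M, then 1.18, 0.824 and 1.25 in NP-D@M, with 1.37, 0.793 and 2.46 in NP-D@MP. It was lower in every library with D, where it rested on 7 to 21 recovered reads against 113 to 448 without D. Rps19bp1 fell by 2.13 (adjusted p = 0.000287) and 1.77 (adjusted p = 0.00103) as deposited and by 3.67 and 3.37 at equal totals. The ratio of Rps19 to Rps19bp1 ran from 1.13 to 5.13 without D and from 193 to 563 with D.

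Rpl7l1 is the paralog of Rpl7, and its yeast counterpart acts in the assembly of the large subunit. Rpl7l1 had an FPKM of 15.5, 14.0 and 12.1 in PBS, 15.7, 11.9 and 16.2 in NP@M, then 9.60, 5.36 and 5.29 in NP-D@M, with 4.61, 7.97 and 6.76 in NP-D@MP. Rpl7 had an FPKM of 67.6, 68.3 and 83.6 in PBS, 78.5, 64.7 and 76.1 in NP@M, then 429, 447 and 540 in NP-D@M, with 395, 490 and 354 in NP-D@MP. The pair thus went opposite ways as deposited, with no overlap between libraries with and without D in either gene. Rpl7l1 fell by 1.04 (adjusted p = 0.00219) and 1.02 (adjusted p = 0.00249), and by 2.98 and 3.0 at equal totals. Rpl7 rose by 2.67 and 2.47 as deposited (the second below 0 under quantile normalization), and stood at 0.52 (adjusted p = 0.0299) and 0.25 (adjusted p = 0.257) at equal totals. The Rpl7 call at equal totals ended without NP@M replicate 2 or 3 (0.43 and 0.55) and without NP-D@M replicate 1 or 3 (0.54 and 0.41). The ratio of Rpl7 to Rpl7l1 was 4.36 to 6.90 without D and 44.7 to 102 with D, and the longest stretch the transcripts share is 22 bases.

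Rps27l and Rpl22l1 were called in the direction of their partners as deposited. Rps27l, known as a p53 target, stood at 2.47 and 2.91 and Rps27 at 3.04 and 3.68 as deposited, and Rpl22l1 at 1.82 and 1.94 beside Rpl22 at 2.94 and 2.74. All 4 were called higher there, where 45.2 and 45.7% of all genes and 79 of 84 members in each comparison were. At equal totals none of the 4 was among the 11 members called higher in both comparisons, and 9.12 and 9.01% of all genes were higher. The ratio of Rps27 to Rps27l ran from 1.01 to 2.80 without D and from 1.89 to 4.29 with D, and that of Rpl22 to Rpl22l1 from 8.27 to 15.2 and from 10.3 to 22.2, so both overlapped.

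The retrogene Rps27rt shares a stretch of 341 identical bases with Rps27, and the retrocopies share 287 to 740 bases with their parents, so the division of reads between these genes is uncertain. All 5 retrocopy names and Rps27rt were called higher as deposited in both comparisons (medians of the 5 were 1.81 and 1.67), and 2 of the 5, Rpl9-ps6 and Rps12-ps3, at equal totals, where both parents were also called. Of all genes, 45.2 and 45.7% were higher as deposited and 9.12 and 9.01% at equal totals. The ratio of Rpl9 to Rpl9-ps6 ran from 2.72 to 3.82 without D and from 2.34 to 4.12 with D. The ratio of Rps27 to Rps27rt was loose in all groups, from 0.151 to 2.18 without D and from 0.335 to 1.42 with D.

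A few parents stood very low beside their pseudogenes. Rps10, a protein of the small subunit beak, had an FPKM of 0.365, 0.182 and 0.164 in PBS and 0.380, 0.615 and 0.184 in NP@M, was listed at 0 in all 3 NP-D@M libraries and in NP-D@MP replicate 1, and stood at 0.266 and 0.330 in the other NP-D@MP libraries. The pseudogene Rps10-ps2 had a mean FPKM of 199 in PBS and 1079 in NP-D@M. Rps2 had a mean of 4.59 in PBS and 34.3 in NP-D@M, and its pseudogene Rps2-ps10 had 207 and 2413. The low rank of Rps10 and Rps2 thus coincided with high values of a processed copy, and how reads that match both were assigned is not given in the sources used here.

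Rpl21 stood at an FPKM of 0.0309 to 0.0999 without D and 0.450 to 1.05 with D, beside a mean of 10.5 in PBS for Rpl21-ps15. Rpl36al, a paralog of Rpl36a, stood at 0 to 0.672 without D and 0.169 to 0.855 with D. These values are too low to read a change from. In all, 59 members have a named pseudogene in GENCODE M21, 289 between them. Of 91 ribosomal protein pseudogenes tested, 84 were called higher and 0 lower as deposited in both comparisons (medians 1.99 and 1.92), and 15 higher and 1 lower, then 13 higher and 2 lower, at equal totals. Of all genes, 45.2 and 45.7% were higher and 46.0 and 45.8% lower as deposited. At equal totals 9.12 and 9.01% were higher and 61.7 and 62.4% lower.

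As deposited 4 members were left uncalled in 1 or both comparisons, Rpl30, Rpl7a, Rpl35a and Rpl26. Rpl30 had an FPKM of 3.34, 0.426 and 0.230 in PBS, 2.55, 0.405 and 2.57 in NP@M, then 12.3, 1.48 and 17.1 in NP-D@M, with 10.4, 0.894 and 12.8 in NP-D@MP. In Rpl30 the libraries of each group differed several-fold, and groups with and without D overlapped. Rpl7a had an FPKM of 27.3, 28.9 and 2.95 in PBS and 19.5, 120 and 100 in NP-D@MP, which also overlapped (2.08, SE 0.94, adjusted p = 0.0525). Rpl35a stood at 1.00 (adjusted p = 0.0586) in NP-D@M against NP@M and at 1.08 (adjusted p = 0.0443) in NP-D@MP against PBS, a call that ended when any 1 of 10 libraries was left out (values of 0.54 to 1.15). Rpl26 had an FPKM of 1.39, 0.890 and 0.131 in PBS and of 0.792, 4.08 and 9.33 in NP-D@MP, which overlapped, and stood at 1.4 (SE 0.64, adjusted p = 0.0555).

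Members were split by coding length. As deposited, members with a coding length under 400, from 400 to under 800 and from 800 to under 1600 bases had medians of 3.15, 2.71 and 2.49 in NP-D@M against NP@M and of 3.48, 2.79 and 2.31 in NP-D@MP against PBS. All genes tested had medians of 2.18, 1.23 and -0.58, and of 2.28, 1.22 and -0.56. At equal totals members stood at 1.02, 0.59 and 0.33 and at 1.26, 0.60 and 0.08, and all genes at 0.45, -0.42 and -1.77 and at 0.48, -0.48 and -1.78. Without the 2 libraries that stood apart, the medians of the members were 2.65, 2.22 and 2.43, and 2.65, 2.29 and 2.37, as deposited, and 0.53, 0.13 and 0.27, and 0.39, 0.04 and 0.12, at equal totals, so the middle class was then the lowest. Over 83 members the Spearman correlation of the fold change with coding length was -0.30 and -0.41 as deposited with all libraries and -0.11 and -0.22 without those 2. Members lay above all genes of their length class in each class and comparison, on both scales. Members with CTTTC near a RefSeq start (21 tested) and without it (40 tested) had medians of 2.89 and 2.87 in NP-D@M against NP@M and of 2.82 and 2.95 in NP-D@MP against PBS.

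**Figure D5:**
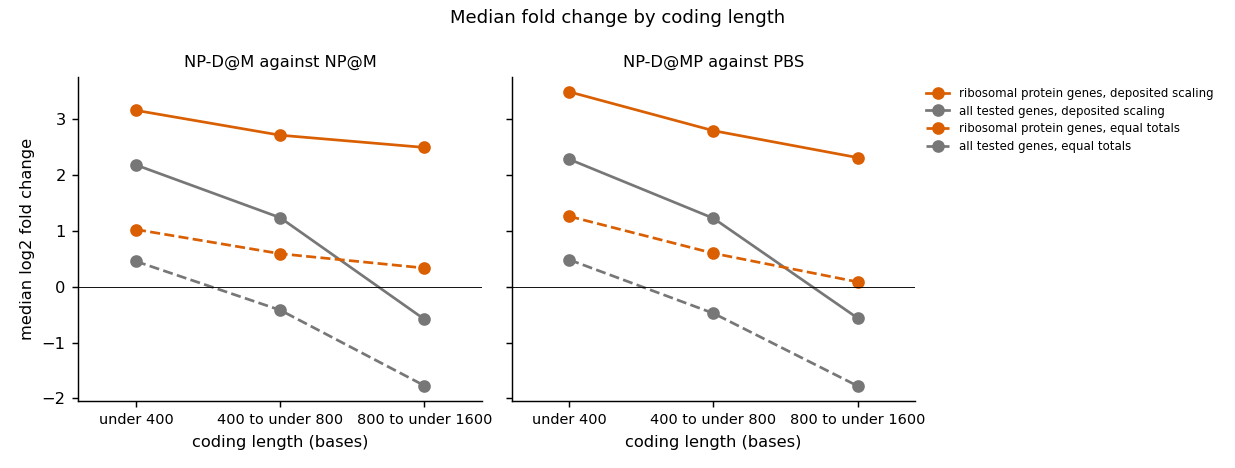
Median log2 fold change of the ribosomal protein genes (orange) and all tested genes (grey) in 3 classes of coding length, as deposited (solid) and at equal totals (dashed), for NP-D@M against NP@M (left) and NP-D@MP against PBS (right). With all libraries included all lines fall with length, while without PBS replicate 3 and NP@M replicate 2 the middle class of members was the lowest, and the orange lines shown lie above the grey lines of the same scale in every class.

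NP@M was compared with PBS, the pair of groups without D. No member was called in either direction by limma on either scale, where 0.0116% of all genes were called higher and 0% lower. The median member stood at -0.12 as deposited and -0.08 at equal totals, beside -0.00 and 0.02 for all genes. Of all 8615 genes, 27 as deposited and 74 at equal totals had an unadjusted limma p under 0.05, and of 84 members 1 did on each scale. That member was Rps27rt, with an FPKM of 240, 95.2 and 68.6 in PBS and 31.8, 30.5 and 65.8 in NP@M. Its NP@M libraries lay just below the PBS libraries, at -1.52 log2 units (SE 0.57, unadjusted p = 0.0224, adjusted p = 1), and Rps27rt was the single member without overlap as deposited, where 1.14% of all genes were lower and 1.74% higher without overlap. At the other end was Rps27, which shares 341 identical bases with Rps27rt, so the division of reads between the 2 genes is uncertain. Rps27 stood at 0.80 (SE 0.49, adjusted p = 1). With a median SE of 0.49 log2 units per member, changes of this size were not detectable with these libraries.

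NP-D@MP was compared with NP-D@M, a pair whose names differ by P. No member and no gene was called by limma on either scale (0% higher and 0% lower of all genes). On both scales 0 members had an unadjusted limma p under 0.05, where 428 of 8615 genes did as deposited and 280 at equal totals. The median member stood at 0.25 as deposited and 0.15 at equal totals, beside 0.03 and -0.01 for all genes. Members ran from Rpl26 at -1.19 (SE 0.64), with Rpl5 at -0.41 (SE 0.23), to Rpl41 at 0.99 (SE 1.20), all with an adjusted p of 1. As deposited, 5 members (5.95%) were higher without overlap, Rpl37, Rpl37a, Rplp2, Rps13 and Rps29, where 8.58% of all genes were. 1 member (1.19%) was lower without overlap, Rpl17, where 6.14% of all genes were. Both shares of members lay below those of all genes. Without PBS replicate 3 and NP@M replicate 2, which enter only the shared spread here, 0 members were called, where 0.0929% of all genes were higher and 0.104% lower as deposited.

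Genes that act with the ribosomal proteins were read from gene lists, whose counts stand beside 45.2% of all genes higher and 46.0% lower as deposited in NP-D@M against NP@M (45.7 and 45.8% in NP-D@MP against PBS) and 9.12 and 61.7% at equal totals (9.01 and 62.4%). Fau and Rack1, ribosomal proteins whose symbols fall outside the rule for members, were called higher as deposited in both comparisons and were not called at equal totals. In NP-D@M against NP@M, Fau, a fusion with a small subunit protein, stood at 2.98 and 0.82 on the 2 scales, and Rack1, a signalling scaffold on the small subunit, at 1.91 and -0.24 (and -0.72 under quantile normalization). Of 17 translation factor and other TOP genes tested, 14 were called higher and 1 lower as deposited in NP-D@M against NP@M (median 1.77), and 1 higher and 6 lower at equal totals (median -0.37). In NP-D@MP against PBS the counts were 14 higher and 2 lower (1.95), and 1 higher and 6 lower (-0.28). Under quantile normalization the medians were -0.25 and -0.36. Tpt1, a TOP mRNA that codes for a growth-linked protein, had an FPKM of 441, 234 and 404 in NP@M against 4709, 4757 and 5324 in NP-D@M, without overlap, and stood at 3.82 and 1.66. The elongation factors Eef1a1 and Eef2 stood at 2.57 and 0.41 and at 1.77 and -0.40, and at -0.98 and -1.36 under quantile normalization.

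Ribosome assembly and RNA polymerase I genes, which act upstream in the nucleolus, were called in the opposite direction as deposited. Of 25 tested, 0 were called higher and 23 lower as deposited in both comparisons (medians -1.35 and -1.16), where 46.0 and 45.8% of all genes were lower, and 24 lower at equal totals in both (-2.75 and -2.68), where 61.7 and 62.4% were. Nop56, a core protein of the snoRNPs that guide rRNA methylation, had an FPKM of 7.93, 11.8 and 8.32 in NP@M against 0.960, 0.933 and 0.962 in NP-D@M. It was lower in every NP-D@M library and fell by 2.39 as deposited and by 3.91 at equal totals. Bms1, a GTPase of small subunit assembly, fell by 2.27 and 3.49, and Rrp1b, a nucleolar protein, by 1.35 and 2.25. The assembly genes thus moved against the ribosomal proteins on the deposited scale, with the direction of Rpl7l1 and Rps19bp1. Medians of all genes fell with coding length, as given above. Neither this list nor those below were matched for coding length, and its part in their directions was not tested.

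Of 10 mTORC1 and TOP regulators tested, 3 were called higher and 7 lower as deposited in NP-D@M against NP@M (median -1.22, and 0.16 for all genes), and 0 higher and 8 lower at equal totals (-2.56, and -1.47 for all genes). In NP-D@MP against PBS 2 were higher and 7 lower (-1.19), and 0 and 8 (-2.47). Larp1, which binds TOP mRNAs, had an FPKM of 12.5, 14.5 and 13.3 in NP@M against 3.10, 3.94 and 4.26 in NP-D@M, without overlap, and fell by 1.60 and 3.45. Eif4ebp2, a repressor of cap-dependent translation, fell by 2.55 and 4.36, and Rptor, the mTORC1 scaffold, by 1.38 and 2.59. All 6 ribosomal stress and p53 genes tested were called lower in both comparisons on both scales (medians -1.74 and -1.81 as deposited, where 46.0 and 45.8% of all genes were lower, and -3.45 and -3.54 at equal totals, where 61.7 and 62.4% were). Among them Myc, which drives ribosome genes, fell by 3.26 and 4.61 in NP-D@M against NP@M, the p53 target Cdkn1a by 2.87 and 4.86, and Grwd1, which binds Rpl11, stood at -1.67 and -2.86.

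Mitochondrial ribosomal proteins, the parts of the separate ribosome that translates mitochondrial mRNAs, were called in both directions. Of 49 tested, 28 were called higher and 15 lower as deposited in NP-D@M against NP@M (median 0.59), and 28 and 17 in NP-D@MP against PBS (0.91). At equal totals the counts were 4 and 26 (-1.15), and 6 and 24 (-0.94). All genes were called higher and lower at 45.2 and 46.0%, 45.7 and 45.8%, 9.12 and 61.7%, and 9.01 and 62.4% in the same order. Mrpl30 stood at 3.41, Mrpl13 at 2.13 and Mrpl44 at -2.56 as deposited in NP-D@M against NP@M. The difference between the cytosolic and mitochondrial sets was not tested.

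Cell type markers did not all move in 1 direction. As deposited, 45.2% of all genes were higher and 46.0% lower in NP-D@M against NP@M (45.7 and 45.8% in NP-D@MP against PBS). At equal totals the shares were 9.12 and 61.7% (9.01 and 62.4%). Of 13 monocyte and macrophage markers tested, 12 were called higher and 1 lower as deposited in both comparisons (medians 3.05 and 3.53), and 7 higher and 2 lower, then 8 and 2, at equal totals (1.32 and 1.36). Their summed level at equal totals was 5683 to 8422 in PBS, 5786 to 7045 in NP@M, 15625 to 19397 in NP-D@M and 17521 to 17802 in NP-D@MP. Of 12 neutrophil markers 4 were called higher and 3 lower as deposited in the first comparison, 6 and 1 in the second, and 0 higher and 11 or 9 lower at equal totals. Their summed level at equal totals was 5060 to 5689 in PBS, 3713 to 5388 in NP@M, 2947 to 4046 in NP-D@M and 2625 to 4011 in NP-D@MP. Of 4 dendritic cell markers tested, 2 and 3 were higher and 1 lower as deposited, and 1 higher and 1 lower at equal totals. The summed level of 6 dendritic cell markers in the table was 183 to 216 in PBS, 203 to 257 in NP@M, 306 to 345 in NP-D@M, with 236 to 305 in NP-D@MP. Of the T and NK cell, B cell and epithelial lists only Cd4, Ighm and Cdh1 were tested, and the summed level at equal totals of the 2 members in the table of each list was at most 1.82, 9.95 and 21.3 in any library. Cd4 was called higher on both scales in both comparisons, Ighm was higher as deposited in NP-D@MP against PBS and lower at equal totals in both, and Cdh1 was higher as deposited in both and not called at equal totals. The part of cell composition in the values of the ribosomal protein genes was not tested.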

How the data were processed

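The deposited table holds FPKM per gene for 12 libraries, with gene lengths, coordinates and biotypes. Bowtie 0.12.2 and build mm8 are named, with no role, per the submitters' processing notes. The coordinates of 83 of 87 members equal GENCODE M21 (GRCm38). How multi-mapping reads and strand were treated is not given in the sources used here. The authors' FPKM times gene length came out whole, in units of 1 read, for 100% of values (tolerance 0.05 of a read), which gave the recovered reads.

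Genes whose FPKM reached 1 in 3 or more libraries (8615) entered limma 3.58.1 in R 4.3.3, with the trend and robust options, on log2(value + 1), with 4 group means and 4 two-sided comparisons. P-values were adjusted by Benjamini-Hochberg over all 8615 genes, separately for each comparison and scale, with a threshold of 0.05. The fit was also run on simulated data in which few genes changed and all genes had the same spread. No simulated library stood apart, so that run does not cover the conditions of these libraries. The software also included Python 3.11.15, matplotlib 3.10.9, scipy 1.17.1, numpy 2.4.6 and pandas 2.3.3. Coding lengths and pseudogene names came from GENCODE M21 and start windows from RefSeq.

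The members and lists were chosen with earlier results of these data known. Named by rule were a set of members with known roles, each paralog pair, the 5 highest and 5 lowest members by fold change per comparison and scale and by PBS level, members called against the median member, members not tested, and up to 3 genes per list with the smallest adjusted p. Rps2, the Rpl9 and Rps12 pairs, Rpl37, the members shared between calls and the ratios within libraries were chosen after values were seen. Alternatives changed the pseudocount (0.1), the filter (none, or 5 in 3 libraries), the scaling (median of ratios, quantile), the limma options and the test (voom), or left out each library in turn. Added after the data were seen were leaving out both libraries that stood apart and totals without the most abundant genes. A gene of 1 list is not reported here.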

Additional observations from a re-analysis of the deposited data

How the results depend on the processing

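Under quantile normalization, in NP-D@M against NP@M, Rps6 stood at -0.99, Rpl5 at -0.32, Rpl3 at -0.29, Rpl4 at -0.41, Rpl10 at -0.41, Rps3 at -0.10, Rack1 at -0.72, Eef2 at -1.36 and Eef1a1 at -0.98, against positive values as deposited. In NP-D@MP against PBS it gave Rps6 -1.14, Rpl5 -0.81, Rpl7 -0.066, Rpl3 -0.34, Rpl4 -0.67, Rpl10 -0.39 and Rps3 -0.34. In the first comparison quantile normalization called 23 members (27.4%, and 34.8% of all genes) higher in place of 79 (94.0 and 45.2%). In the second it called 24 (28.6 and 34.7%) higher in place of 79 (94.0 and 45.7%), and 5 (5.95 and 36.7%) lower in place of 2 (2.38 and 45.8%). Members were thus called higher less often than all genes under quantile normalization, and more often as deposited. Totals without the most abundant genes, chosen after seeing the data, called 35 (15.5% of all genes) in place of 17 (9.12%) higher in the first. In the second these totals called 36 (15.2%) in place of 13 (9.01%) higher and 2 (57.1%) in place of 4 (62.4%) lower. They turned Rps6 to 0.033, Rpl5 to 0.21, Rack1 to 0.21 and Eef2 to 0.057 in the first, and Rpl3 to 0.36 and Rpl4 to 0.29 in the second. Without both libraries that stood apart, also chosen after seeing the data, 7 members (68.3% of all genes) in place of 4 (62.4%) were lower at equal totals in the second comparison. Rpl11 then stood at -0.10 and -0.23.

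Leaving out 1 library at a time gave 7 (without NP@M replicate 2) to 33 (without PBS replicate 3) members higher at equal totals in NP-D@M against NP@M, 7 (without PBS replicate 3) to 27 (without PBS replicate 1) higher and 2 (without NP-D@MP replicate 1) to 4 lower in NP-D@MP against PBS, and 74 to 81 and 76 to 81 higher as deposited. In those fits 7.43 to 11.6% and 7.21 to 10.1% of all genes were higher at equal totals, and 60.1 to 65% lower in the second comparison. As deposited 42.5 to 46.6% and 42.8 to 46% of all genes were higher. Leaving out 1 library moved Rpl11 at equal totals between -0.10 and 0.56 and between -0.23 and 0.68, and Rpl3 between -0.10 and 0.18 and between -0.19 and 0.040, in the same order of comparisons. Without NP-D@M replicate 1 or replicate 3, 10 were higher at equal totals in the first comparison, and without NP-D@MP replicate 2, 8 in the second. The cause was not tested. Of the counts of members called under an alternative, 289 stayed within 1.5 times the value in the report and 15 did not. The 289 include counts for NP@M against PBS and NP-D@MP against NP-D@M that were 0 in both, so they say little about stability. Median of ratios is also close to the deposited scaling, with factors of 0.994 to 1.06. Voom on the recovered reads called 17 higher and 2 lower (8.76 and 61.2% of all genes), then 14 and 4 (8.67 and 62.0%). No paired analysis was possible because the labels give no replicate number that groups share, and the numbers used here follow accession order only.

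With 3 libraries a group the SE was 0.49 log2 units for the median member, so a small change could be called only in members with a narrow spread, such as Rpl5. The deposited scaling, the choice of genes for the table and reads shared with pseudogenes limit every level given here.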
